A study of Mus musculus with 8 samples.

Results

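Gm15915, Ces2g, Grb10, Epdr1, Mmp14, Muc13, Zg16, Slc6a19 and Frat2 are 9 genes whose RNA was lower in IL-18Rα-hi-enriched CD8+ T cells than in the cells that passed through the column (flow-through). They were selected on the measured fall in the enriched fraction, which was among the largest, and were taken by name from the 47493 genes of the deposited table, so the fall describes how they were chosen and was not tested. All 9 were found in the table and had a mean of at least 1 FPKM (fragments per kilobase of transcript, scaled to the size of the library), as did 12166 genes in all. By the size of the fall they held places 2 to 83 among these 12166 genes, and many genes between those places were not taken.

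The samples came from 4 female C57BL/6 mice, aged 6 to 8 weeks at the start, which all carried B16F10 melanoma, injected into the skin on day 0. All mice were given cyclophosphamide at 300 mg/kg on day 3, Thy1.1 Pmel-1 T cells with a transgenic receptor for a melanoma antigen on day 5 together with recombinant human IL-2, and the CD4-depleting antibody GK1.5 (200 μg weekly) from day 10. Inguinal lymph nodes and spleen of each mouse were dispersed on day 25, red cells were lysed, and CD8+ cells without Thy1.1, which are the endogenous T cells of the host, were isolated with magnetic beads. These were split with a PE-labelled antibody against IL-18Rα into a retained, IL-18Rα-hi-enriched fraction and a flow-through, which served as the control. Each fraction had 4 libraries, and no untreated group was compared here. Libraries of the same replicate number were taken as 1 mouse, a pairing that the sample labels do not spell out.

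The genes have little in common by textbook function, and most are known from other tissues than T cells. Ces2g encodes a carboxylesterase, Mmp14 a membrane-bound matrix metalloproteinase that activates the MMP2 proenzyme, Grb10 an imprinted adaptor that binds the insulin and IGF1 receptors, and Frat2 a GSK3-binding protein of the WNT pathway. Muc13 encodes a transmembrane mucin, Zg16 a lectin-like protein of secretory granules, Epdr1 an ependymin-related protein and Slc6a19 the neutral amino acid transporter of gut and kidney epithelium, whereas Gm15915 is a noncoding RNA. Their levels were followed beside those of 4 marker genes: Car1, the carbonic anhydrase of erythroid cells, Mpo, the peroxidase of granulocyte precursors, Cpa3, the carboxypeptidase of mast cells, and Cd8a, a chain of the CD8 coreceptor.

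The labelled cell type was checked with 10 genes of CD8 T-cell identity, which were expressed in all 8 libraries. Their summed level ranged from 1426 to 2704 FPKM in flow-through libraries and from 2742 to 2931 FPKM in enriched libraries. Flow-through replicate 1 stood apart, as its geometric mean over these genes relative to the average library was 0.570 against 0.907 to 1.07 in the other flow-through libraries and 1.12 to 1.19 in the enriched libraries. The number of genes at 1 FPKM or more was 11706 to 12288 per library. Nothing here gives the depth of the libraries in reads, so no counting error is given. Erythroid genes were abundant, with a summed level of 25 markers between 1464 and 5168 FPKM in the flow-through and between 400 and 2296 FPKM in the enriched fraction. Genes of other blood cells were abundant as well. The summed level of 14 granulocyte genes was 628 to 3634 FPKM in the flow-through and 686 to 4221 FPKM in the enriched fraction. For 6 plasma cell genes it was 337 to 1335 FPKM and 619 to 1610 FPKM.

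The sequences upstream of 5 of the genes are shown because 4 of these genes, Gm15915, Ces2g, Grb10 and Mmp14, ordered the libraries much as Car1 did, while Frat2 did so less. Epdr1, which ordered the libraries as Car1 did too, is not shown because 97 of the 153 bases of its window lie in annotated exons, and the outer start of Grb10 is not shown because its window held none of the motifs searched. Each is the 250 bases before a RefSeq start site on GRCm38.p6, written 5′ to 3′ on the strand of the gene. The windows lie at chr10:93683323-93683572 on the minus strand for Gm15915, chr8:104961468-104961717 on the plus strand for Ces2g, and chr11:12027972-12028221 on the minus strand for the inner start of Grb10. Those of Mmp14 and Frat2 are chr14:54431348-54431597 on the plus strand and chr19:41848133-41848382 on the minus strand. Capitals mark the motif AGATAA or its reverse TTATCT, which GATA factors of blood cells bind, and CACCC or its reverse GGGTG, which Krüppel-like factors bind.
Gm15915: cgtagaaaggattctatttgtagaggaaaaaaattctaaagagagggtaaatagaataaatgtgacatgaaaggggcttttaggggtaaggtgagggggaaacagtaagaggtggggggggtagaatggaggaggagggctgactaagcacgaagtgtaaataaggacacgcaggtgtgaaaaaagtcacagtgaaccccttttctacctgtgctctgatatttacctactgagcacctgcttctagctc
Ces2g: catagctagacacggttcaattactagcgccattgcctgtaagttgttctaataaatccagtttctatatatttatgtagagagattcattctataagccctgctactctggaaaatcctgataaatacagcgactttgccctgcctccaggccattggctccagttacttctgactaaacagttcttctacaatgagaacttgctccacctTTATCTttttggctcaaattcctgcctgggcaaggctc
Grb10: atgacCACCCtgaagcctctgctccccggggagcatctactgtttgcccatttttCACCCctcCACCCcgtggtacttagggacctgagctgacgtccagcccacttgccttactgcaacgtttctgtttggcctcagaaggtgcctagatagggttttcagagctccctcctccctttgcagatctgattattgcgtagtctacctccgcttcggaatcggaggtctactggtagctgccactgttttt
Mmp14: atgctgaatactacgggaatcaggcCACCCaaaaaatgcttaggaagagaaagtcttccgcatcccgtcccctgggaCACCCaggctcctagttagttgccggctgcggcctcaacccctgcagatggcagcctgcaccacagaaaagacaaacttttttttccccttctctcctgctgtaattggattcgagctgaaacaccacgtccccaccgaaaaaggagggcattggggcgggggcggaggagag
Frat2: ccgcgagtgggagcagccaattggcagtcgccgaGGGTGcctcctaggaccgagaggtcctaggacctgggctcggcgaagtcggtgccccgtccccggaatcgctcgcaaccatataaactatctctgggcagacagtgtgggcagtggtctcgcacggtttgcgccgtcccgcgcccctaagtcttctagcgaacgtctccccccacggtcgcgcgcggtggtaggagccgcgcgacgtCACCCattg

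Upstream windows were found for 8 of the 9 genes, with 10 windows in all, and Zg16 had none. The GATA motif was searched only as AGATAA or TTATCT, so other forms that GATA factors bind were neither counted nor marked. In this form it was found in 1 of the 8 genes, Ces2g, where TTATCT began 38 bases before the start. The same form was found in 9.99% of 32851 promoters of all genes. CACCC or GGGTG was found in 3 of 8 genes, Grb10, Mmp14 and Frat2, and in 52.0% of all promoters. The third motif searched, the E-box CANNTG, which reads the same way on both strands in these letters, was found in 5 of 8 genes and in 66.2% of all promoters. The motifs were searched on both strands, no matches of different motifs overlapped in these windows, and a match describes these letters only. None of the 5 windows shown holds a base of an annotated exon.

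Gm15915 (ENSMUSG00000085723; mm10 chr10:93674218-93683322, minus strand, antisense noncoding RNA) showed the largest difference of the 9. Its level was 72.4, 32.7, 53.1 and 44.6 FPKM in the flow-through libraries of mice 1 to 4 and 7.73, 3.09, 5.75 and 2.39 FPKM in the enriched libraries. Every flow-through library was therefore well above every enriched library, and mouse 1 was highest in both fractions. The means were 50.7 ± 16.7 and 4.74 ± 2.46 FPKM (SD, n = 4), a ratio of 10.7, with ratios of 9.24 to 18.7 within the mice. The difference of log2(FPKM + 1), enriched minus flow-through, was -3.22 (SE 0.33).

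Gm15915 overlaps Ntn4, which lies on the opposite strand, and the authors' counting is not known to have used strand. Ntn4, which encodes netrin-4, was at 3.13 ± 2.13 FPKM in the flow-through against 1.08 ± 0.823 FPKM in the enriched fraction (limma adjusted p = 0.094, not called). The level of Gm15915 was thus above that of the gene it overlaps in each fraction, but reads of the pair cannot be told apart.

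Among the enzymes, Ces2g (ENSMUSG00000031877; chr8:104961718-104969537, plus strand) had the highest mean of the 9 genes in both fractions, although Frat2 was above it in the enriched libraries of mice 2 and 4. It was at 138.1, 49.3, 77.4 and 59.5 FPKM in flow-through libraries 1 to 4 and at 31.7, 7.15, 21.4 and 7.44 FPKM in the enriched libraries. The mice stood in the same order in both fractions, with mouse 1 highest and mouse 2 lowest. The fractions did not overlap, although the enriched library of mouse 1 came closest to the flow-through range. The means were 81.1 ± 39.8 and 16.9 ± 11.9 FPKM, a ratio of 4.80, and the difference was -2.34 (SE 0.50) on the log2 scale.

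Mmp14 (ENSMUSG00000000957; chr14:54431612-54445364, plus strand) was at 24.7, 9.43, 13.6 and 12.5 FPKM in the flow-through and at 3.73, 1.76, 3.15 and 1.58 FPKM in the enriched fraction. Mouse 1 was highest in both fractions, and the fractions were well apart. Means of 15.0 ± 6.67 and 2.55 ± 1.05 FPKM gave a ratio of 5.89 and a log2 difference of -2.14 (SE 0.30).

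Of the signaling genes, Grb10 (ENSMUSG00000020176; chr11:11930508-12038683, minus strand) was at 13.2, 7.57, 11.5 and 8.23 FPKM in the flow-through and at 1.62, 1.27, 1.92 and 0.698 FPKM in the enriched fraction. The flow-through libraries of mice 1 and 3 were higher than those of mice 2 and 4, and the enriched libraries showed the same split. The means of 10.1 ± 2.67 and 1.38 ± 0.525 FPKM differed 7.34-fold, which was -2.22 (SE 0.22) on the log2 scale. Its mean was the lowest of the 9 genes in the enriched fraction, although Zg16 was below it in the enriched libraries of mice 1 and 3.

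Frat2 (ENSMUSG00000047604; chr19:41845972-41848132, minus strand) was at 32.8, 29.4, 24.4 and 28.6 FPKM in the flow-through and at 10.5, 8.59, 9.54 and 7.81 FPKM in the enriched fraction. Its libraries were close to one another within each fraction. The ratio of the means, 28.8 ± 3.45 and 9.10 ± 1.15 FPKM, was 3.17, the smallest of the 9, with a log2 difference of -1.56 (SE 0.12). Frat2 held place 83 by its fall, between Spns2 (-1.57) and Adgrg7 (-1.55), which were not taken and are named here after their values were seen.

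The surface and secreted proteins followed. Muc13 (ENSMUSG00000022824; chr16:33794037-33819934, plus strand) was at 19.7, 22.0, 15.7 and 21.9 FPKM in the flow-through and at 3.36, 4.53, 4.23 and 3.55 FPKM in the enriched fraction. Mouse 2 was highest in both fractions, and the libraries of each fraction lay close together. The means were 19.8 ± 2.94 and 3.92 ± 0.554 FPKM, which was a ratio of 5.06 and a log2 difference of -2.08 (SE 0.13).

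Zg16 (ENSMUSG00000049350; chr7:127050156-127087328, minus strand) was at 9.45, 9.51, 7.19 and 9.06 FPKM in the flow-through and at 1.14, 1.87, 1.73 and 1.04 FPKM in the enriched fraction. Mice 1, 2 and 4 were nearly equal in the flow-through, and mouse 3 was lower. Means of 8.80 ± 1.10 and 1.44 ± 0.415 FPKM gave a ratio of 6.09 and a log2 difference of -2.01 (SE 0.15).

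Epdr1 (ENSMUSG00000002808; chr13:19591706-19619927, minus strand) varied most among the libraries. It was at 43.8, 12.5, 23.9 and 15.8 FPKM in the flow-through and at 11.4, 1.45, 6.26 and 1.82 FPKM in the enriched fraction. The enriched library of mouse 1 came close to the flow-through library of mouse 2, without overlap of the fractions. The coefficient of variation was 58.5% in the flow-through against 89.0% in the enriched fraction, and the means of 24.0 ± 14.1 and 5.23 ± 4.65 FPKM gave a ratio of 4.59 and a log2 difference of -2.17 (SE 0.57).

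Slc6a19 (ENSMUSG00000021565; chr13:73679745-73704865, minus strand), the transporter, was at 5.77, 10.0, 9.05 and 12.4 FPKM in the flow-through and at 1.63, 1.68, 2.02 and 1.98 FPKM in the enriched fraction. Here mouse 1 was the lowest of both fractions. Means of 9.32 ± 2.76 and 1.83 ± 0.201 FPKM gave a ratio of 5.10 and a log2 difference of -1.83 (SE 0.19). The antisense gene that overlaps it, Slc6a19os, reached at most 0.167 FPKM.

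**Figure D1:**
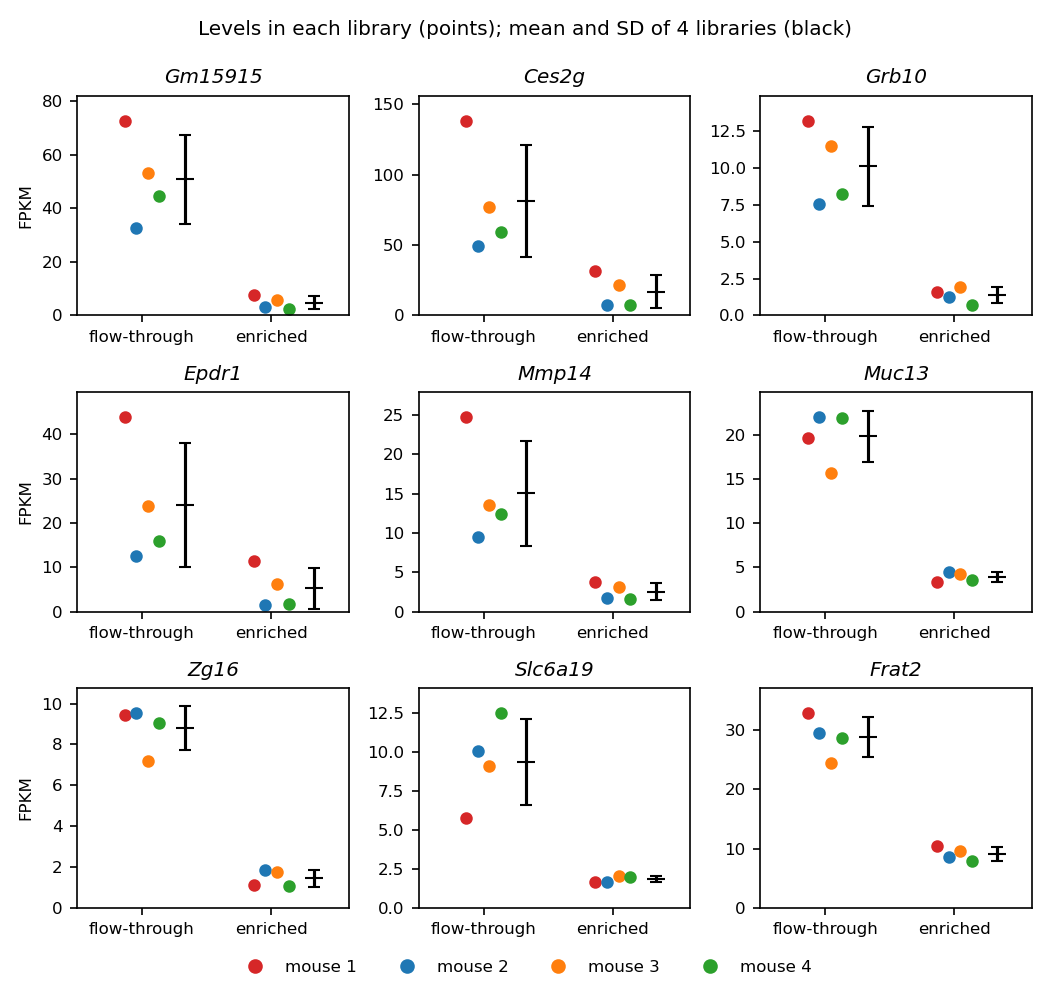
Level of each of the 9 genes in FPKM (vertical axis, linear from 0) in the 4 flow-through and the 4 enriched libraries; points are libraries colored by mouse, and black bars are the mean and SD (n = 4). In each panel every flow-through point lies above every enriched point, and mouse 1 is highest in the flow-through for Gm15915, Ces2g, Grb10, Epdr1, Mmp14 and Frat2 and lowest for Slc6a19.

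In all 9 genes the fractions did not overlap, as in 15.9% of all genes tested, and all 9 were called lower by limma, as were 13.7%. Because this contrast chose the genes, nothing is read from these counts. All 36 ratios within the mice were above 1 and ranged from 2.56 for Frat2 in mouse 3 to 18.7 for Gm15915 in mouse 4. The ratio was highest in mouse 4 for 9 of the 9 genes. It was also highest there for Car1 (8.82) and Mpo (1.25), but not for Cpa3 or Cd8a, and it was not counted over all genes. The median log2 difference of the genes was -2.14, against -0.018 over all genes tested. In a bulk sample, fewer cells of a type and less RNA per cell cannot be told apart.

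**Figure D2:**
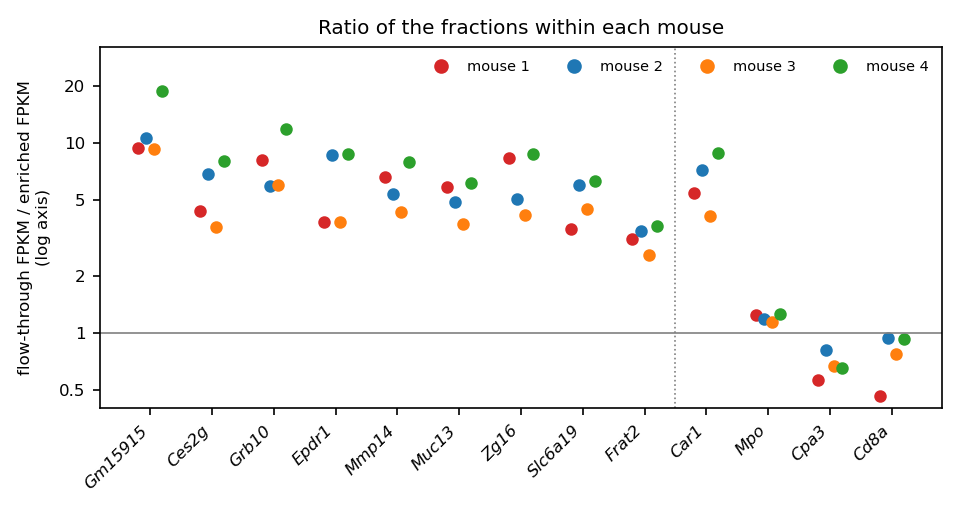
Ratio of flow-through to enriched FPKM within each mouse (log axis; the line marks 1) for the 9 genes and, right of the dotted line, for Car1, Mpo, Cpa3 and Cd8a; points are mice. The 9 genes lie between 2.56 and 18.7, Car1 between 4.13 and 8.82, Mpo between 1.14 and 1.25, and Cpa3 and Cd8a below 1.

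In the flow-through the genes stood in the order Ces2g, Gm15915, Frat2, Epdr1, Muc13, Mmp14, Grb10, Slc6a19 and Zg16 by mean FPKM, which is scaled for transcript length. The libraries of every neighboring pair in this order overlapped, and only Gm15915 exceeded its next neighbor, Frat2, by more than the larger SD. In the enriched fraction the order was Ces2g, Frat2, Epdr1, Gm15915, Muc13, Mmp14, Slc6a19, Zg16 and Grb10. There all neighbors overlapped as well, and only Muc13 exceeded its next neighbor, Mmp14, by more than the larger SD. Gm15915 moved from place 2 to place 4 and Grb10 from place 7 to place 9, and each of the other 7 genes moved by at most 1 place.

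To compare the genes with markers of candidate cell sources, the order of the libraries within each fraction was used, which had no part in the choice of the genes. Each fraction holds 6 pairs of libraries, and for each of the 12 pairs it was asked whether a gene and a marker had the same library higher. These pairs share mice and libraries, so the counts are given as a description. Car1 was at 1359, 609, 789 and 769 FPKM in the flow-through and at 248, 84.2, 191 and 87.2 FPKM in the enriched fraction (log2 difference -2.61, SE 0.39, limma adjusted p = 0.003). Mpo was at 252, 1394, 404 and 669 FPKM and at 203, 1175, 354 and 533 FPKM (-0.27, SE 0.63, limma adjusted p = 0.777). Mouse 1 was thus highest for the erythroid marker and lowest for the granulocyte marker in both fractions. The fit without a block sets each difference against the spread between mice. Within the mice, the flow-through level of Mpo was 1.14 to 1.25 times the enriched level.

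Cpa3 was at 9.69, 31.1, 14.3 and 21.3 FPKM in the flow-through and at 17.1, 38.3, 21.4 and 32.5 FPKM in the enriched fraction (0.55, SE 0.36, limma adjusted p = 0.286). Cd8a was at 179, 345, 297 and 336 FPKM and at 385, 366, 384 and 361 FPKM (0.41, SE 0.19, limma adjusted p = 0.140). Within the mice, the flow-through level was 0.566 to 0.812 times the enriched level for Cpa3 and 0.465 to 0.941 times for Cd8a. Cpa3 and Mpo ordered the 4 mice in the same way, which was the reverse of Car1, so that agreement with Car1 and agreement with Mpo or Cpa3 are the same measurement. In the flow-through Cd8a had this same order, with mouse 1 lowest, so agreement with Cd8a there is again the same measurement. In the enriched fraction its order was nearly the reverse.

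Ces2g and Epdr1 ordered all 12 pairs as Car1 did, which 2.55% of all genes tested also did. Gm15915 and Mmp14 matched Car1 in 11 of 12 pairs and Grb10 in 10, counts that 10.5% and 20.0% of all genes reached or passed. These 5 genes matched Car1 in 6 of 6 flow-through pairs. With Mpo and with Cpa3 they shared 0 to 2 of 12 pairs. With Cd8a they shared 0 of 6 pairs in the flow-through, which repeats their match with Car1 there, and 5 or 6 of 6 in the enriched fraction. The median of all genes was 5 of 12 with Car1.

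The other 4 genes departed from Car1. Frat2 matched it in 8 of 12 pairs, Zg16 and Slc6a19 in 4, and Muc13 in 2. With Mpo and Cpa3, Muc13 shared 10 of 12 pairs, a count that 20.6% of all genes reached, and Zg16 and Slc6a19 shared 8. With Cd8a, Frat2 shared 9 of 12 pairs, which 7.78% of all genes reached, and Muc13, Zg16 and Slc6a19 shared 7. For Frat2, 6 of the 9 pairs lay in the enriched fraction, where Cd8a ranged only from 361 to 385 FPKM. None of the 4 genes followed any of the 4 markers in all 12 pairs.

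**Figure D3:**
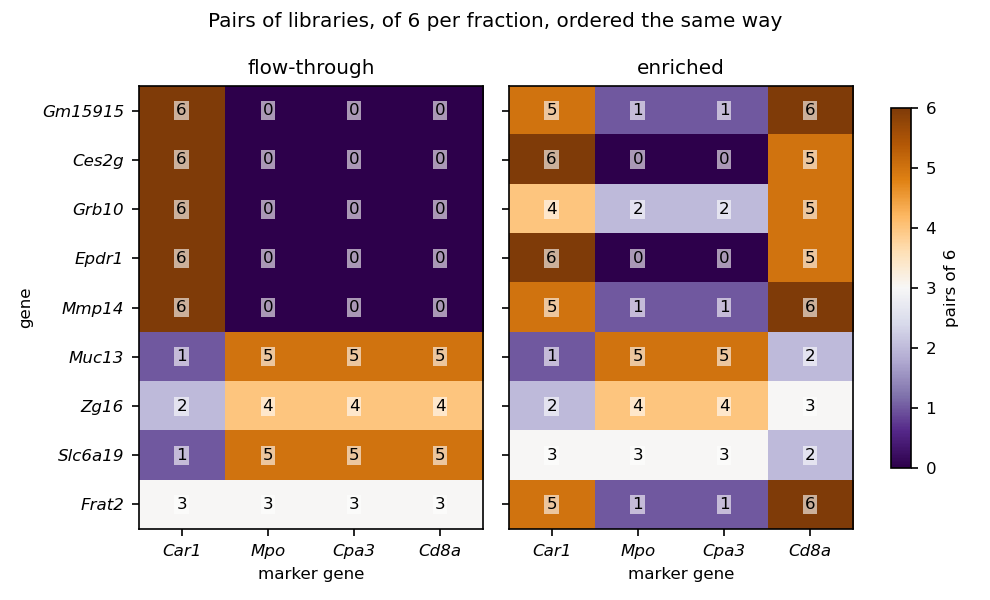
Number of library pairs, of 6 in each fraction, in which a gene (rows) and a marker (columns) had the same library higher, for the flow-through (left) and the enriched fraction (right). Gm15915, Ces2g, Grb10, Epdr1 and Mmp14 share 6 of 6 flow-through pairs with Car1 and 0 of 6 with Mpo, Cpa3 and Cd8a. There Mpo, Cpa3 and Cd8a have the reverse order of Car1, and Muc13 shares 1 pair with Car1 and 5 with each of them.

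Among themselves, the 5 genes with at least 10 of 12 pairs as Car1 shared 10 to 12 pairs in their 10 combinations. The other 4 genes shared 4 to 10 pairs in their 6 combinations (median 7), and combinations across both sets shared 2 to 9 (median 4). This division was drawn after the values were seen and by the order of Car1 in these same libraries. The high counts within the first set therefore largely follow from the division and are given as a description. Without flow-through replicate 1, which had the highest Car1 and the lowest T-cell level, Ces2g and Epdr1 kept 9 of 9 pairs, Gm15915 and Mmp14 kept 8 and Grb10 kept 7. Without both libraries of mouse 1, these genes shared 5 or 6 of 6 pairs with Car1. In the same 6 pairs Frat2 shared 2 with Car1 and 6 with Cd8a, Slc6a19 shared 4 with Car1 and 2 with Mpo, and Muc13 and Zg16 each shared 1 with Car1 and 5 with Mpo. The order of Frat2 relative to Car1 and that of Slc6a19 relative to Mpo thus rested on mouse 1. Dividing each library by its T-cell level left their counts with Car1 as they were and raised those of Muc13 to 4, Zg16 to 5, Slc6a19 to 7 and Frat2 to 9. The part of the amount of T-cell RNA in these orders was not tested further.

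The levels were also set as a percentage of Car1 in each library. The 9 genes were chosen for a fall between the fractions and Car1 was lower in the enriched fraction as well, so whether these percentages overlap between the fractions depends on that choice and is given as a description. Mmp14 was at 1.55% to 1.82% of Car1 in the flow-through and 1.50% to 2.09% in the enriched fraction, and Ces2g was at 7.74% to 10.2% and 8.49% to 12.8%. Both ranges overlapped, although Car1 itself differed between the fractions by 4.13 to 8.82 times within the mice. Epdr1 was at 2.05% to 3.23% and 1.72% to 4.59% of Car1, and Grb10 at 0.970% to 1.46% and 0.654% to 1.51%, again with overlap. Gm15915 was the exception of the 5, with 5.33% to 6.73% of Car1 in the flow-through and 2.74% to 3.67% in the enriched fraction and no overlap.

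For the other 4 genes the percentage of Car1 overlapped between the fractions as well. In the flow-through its highest value was 2.0 to 3.87 times its lowest for these 4 genes, against 1.18 to 1.57 times for the 5 genes above. In the enriched fraction it was 2.42 to 4.85 times for the 4 genes, against 1.34 to 2.67 times for the 5, so that Frat2 there varied less than Epdr1. The 5 genes were set apart by ordering the libraries as Car1 did, so a steadier percentage of Car1 in part follows from that division. Muc13 ranged from 1.45% to 3.61% of Car1 in the flow-through and from 1.35% to 5.38% in the enriched fraction, and Zg16 from 0.695% to 1.56% and from 0.458% to 2.22%. Slc6a19 ranged from 0.425% to 1.65% and from 0.658% to 2.27% and Frat2 from 2.41% to 4.83% and from 4.21% to 10.2%. Relative to Cd8a, Slc6a19 was at 2.91% to 3.70% in the flow-through, a narrow range that held mouse 1 as well, and at 0.424% to 0.548% in the enriched fraction.

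**Figure D4:**
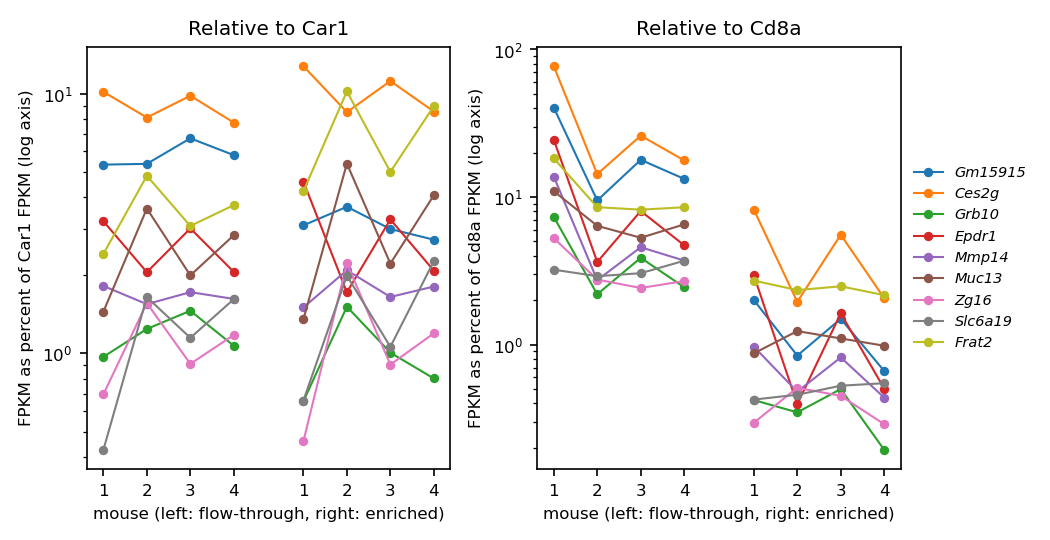
FPKM of each of the 9 genes as a percentage of Car1 (left panel) and of Cd8a (right panel) in the same library (log axes), for mice 1 to 4 in the flow-through (left of each panel) and the enriched fraction (right); lines join the libraries of 1 fraction. Relative to Car1, Ces2g, Mmp14, Epdr1 and Grb10 cover overlapping ranges in both fractions and Gm15915 does not, and relative to Cd8a all 9 genes lie lower in the enriched fraction.

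Genes that mark other cell types were examined for their own difference between the fractions. Over all genes tested, limma called 1664 lower (13.7%) and 1720 higher (14.1%) in the enriched fraction. A fit with the mouse as a block called 2763 lower and 2705 higher. Without flow-through replicate 3, enriched replicate 2 or enriched replicate 4, the numbers of lower genes were 939, 958 and 971, and without the last 2 of these the numbers of higher genes were 1115 and 1107. Dividing by the T-cell level moved the median difference of all genes from -0.018 to -0.38 and left 1535 lower and 505 higher genes, so that 24.8% of calls were higher in place of 50.8%.

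Of the 25 erythroid genes, 9 were called lower, none higher, and all 25 had a difference below 0, with a median of -1.33. Before adjustment, 12 were lower and 0 higher at a limma p under 0.05. Beside Car1, the called genes included Aqp1, a water channel (-1.90, limma adjusted p = 0.046), and Ermap, an erythroid membrane protein (-1.90, limma adjusted p = 0.044). Car2, another carbonic anhydrase, had -1.60 (limma adjusted p = 0.079), and the globin genes Hba-a1 and Hbb-bs had -0.50 and -0.46 (limma adjusted p = 0.686 and 0.695). In the fit blocked by mouse, 22 of the 25 were called lower. The 9 calls became 5 without flow-through replicate 1, flow-through replicate 4 or enriched replicate 3, and 3 without flow-through replicate 3, enriched replicate 2 or enriched replicate 4. Of the 24 erythroid genes other than Car1, 23 shared at least 10 of 12 library pairs with Car1, as did 5 of the 9 genes described here. The level of Hba-a1 was 229 ± 201 FPKM in the flow-through against 186 ± 202 FPKM in the enriched fraction.

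The stem and progenitor list had 10 genes tested, of which 6 were called lower and 2 higher, with a median of -0.97. Myb, a transcription factor of blood progenitors, was at 82.9 ± 5.17 FPKM in the flow-through against 26.8 ± 5.23 FPKM in the enriched fraction (-1.61, limma adjusted p = 0.0003), and Lmo2, another such factor, had -1.51 (limma adjusted p = 0.004). The 6 lower calls became 3 without flow-through replicate 3 or enriched replicate 4. The higher genes, Flt3 (1.18) and Hlf (0.62), were not called after dividing by the T-cell level, and 1 of the pair remained without flow-through replicate 1 or 3 or enriched replicate 2, 3 or 4. Of these 10 genes, 2 shared at least 10 of 12 pairs with Car1. None of the 14 granulocyte genes was called by limma in either direction, with 2 higher and 0 lower at an unadjusted p under 0.05, and their median of 0.19 turned to -0.20 after dividing by the T-cell level. In the fit blocked by mouse 4 were higher and 1 lower, and the number higher was 2 without flow-through replicate 2, or 1 when enriched replicate 1 was left out.

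Of 10 mast cell and basophil genes tested, 2 were higher, Prss34 (1.65, limma adjusted p = 0.020) and Mcpt8 (1.45, limma adjusted p = 0.023), both basophil proteases, and 2 were lower, Kit (-1.12, limma adjusted p = 0.001) and Gata2 (-0.82, limma adjusted p = 0.023), which the progenitor list holds as well. Both higher calls were lost without flow-through replicate 3, enriched replicate 2 or enriched replicate 4, whereas 5 genes were higher in the fit blocked by mouse. One of the 2 lower calls was lost without flow-through replicate 3 or 4 or enriched replicate 3 or 4. Of 7 megakaryocyte and platelet genes tested, 2 platelet glycoprotein genes were lower, Gp5 (-1.70) and Gp1ba (-0.57), and 1 without flow-through replicate 2 or 3. The CD8 T-cell genes had 2 of 10 higher, with a median of 0.40 that became 0.0018 after dividing by the T-cell level, which these genes define, and both calls, Cd5 (0.60) and Zap70 (0.64), were lost in that fit and without flow-through replicate 3 or any 1 enriched library.

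Muc13, Zg16 and Slc6a19 are known from gut epithelium, and markers of that tissue were examined, but a source there was not tested. Of 20 intestinal epithelium genes, 7 were listed at 0 in every library and 16 were under the mean of 1 FPKM, none of these above 0.352 FPKM in any library. The 4 that were tested, Lgals4, Epcam, Krt18 and Cdh1, were not called by limma, nor did any reach an unadjusted p under 0.05, but in the fit blocked by mouse Epcam (0.54, limma adjusted p = 0.011) and Cdh1 were called higher, as was Epcam without enriched replicate 1. Lgals4 was the highest of the 4 at 6.75 ± 2.52 and 6.33 ± 0.814 FPKM. No liver or kidney gene of 10 reached the mean of 1 FPKM, and the highest value of any was 0.557 FPKM. Of 10 fibroblast and endothelial genes only Pecam1, which blood cells also express, was tested and it was not called, with -0.10 (limma adjusted p = 0.744).

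Markers of other blood cells were mostly called higher where they were called, with Ccr9 as the exception. Of 10 macrophage and monocyte genes tested 5 were higher (Lyz2, Cd68, Adgre1, C1qc and C1qa), with a median of 0.92. That count was 8 without enriched replicate 1, 1 without enriched replicate 4, and 2 or 3 without flow-through replicate 1, 3 or 4 or enriched replicate 2 or 3. It was 2 after dividing by the T-cell level, where Lyz2 and Adgre1 were no longer called (limma adjusted p = 0.059 and 0.075). Of 5 B cell genes, Cd22 (0.98) was higher, with a median of 0.10 that turned to -0.30 after dividing by the T-cell level. Of 6 plasma cell genes, Irf4 (1.10) and Prdm1 (1.18), which activated T cells also express, were higher, with a median of 0.72. Of 5 plasmacytoid dendritic cell genes, Siglech (0.96) was higher and Ccr9 (-1.68) lower, with a median of 0.09 that turned to -0.30 after dividing by the T-cell level. In the fit blocked by mouse the higher counts of these 4 lists were 10, 2, 6 and 2. The share of these cells in either fraction was not tested.

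**Figure D5:**
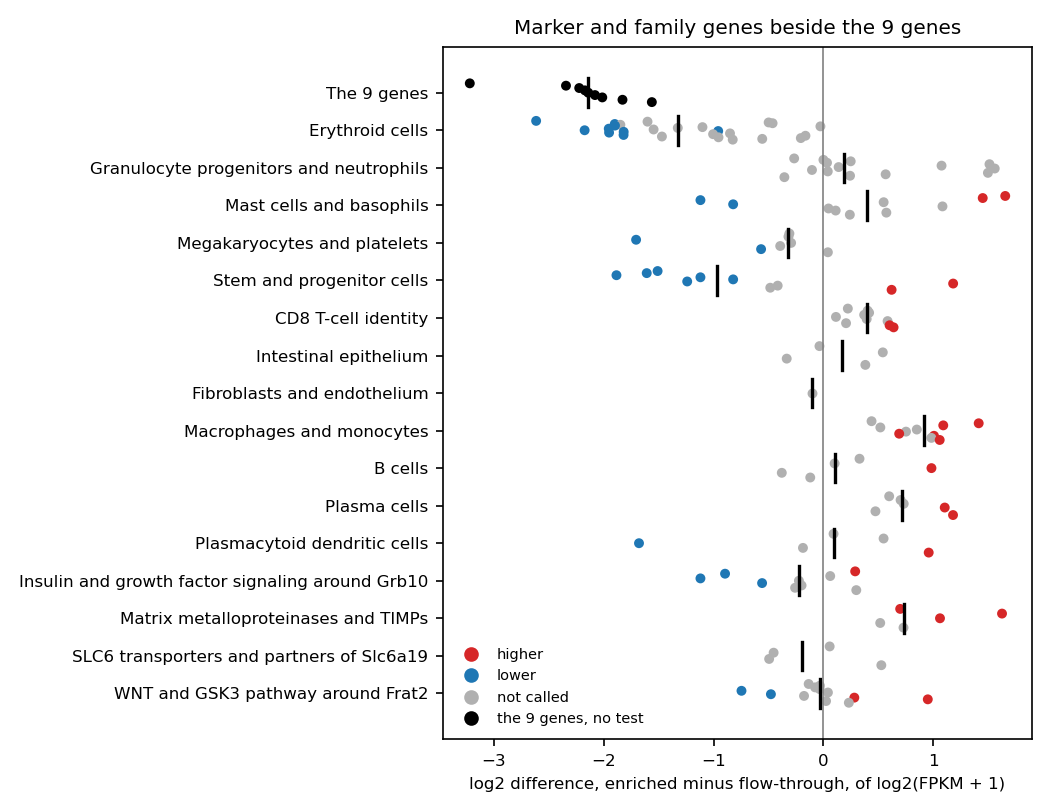
Log2 difference, enriched minus flow-through, of log2(FPKM + 1) for the 9 genes (top row, black, without a test) and for every tested gene of the marker and family lists (rows); red and blue points were called higher and lower by limma, grey points were not called, and short bars are medians. The 9 genes lie between -3.22 and -1.56, and among the lists the erythroid one, with a median of -1.33, comes closest.

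The relatives of the genes were examined in 6 lists of families and pathways. For the enzymes, none of 18 other carboxylesterase genes reached a mean of 1 FPKM, and 14 were listed at 0 in every library. The highest value was 2.58 FPKM, for Ces2c in an enriched library, so that Ces2g stood nearly alone in its family. Of 21 other metalloproteinase and TIMP genes 5 were tested, of which 3 were higher and none was lower (median 0.73). At an unadjusted p under 0.05 limma had 4 higher and 0 lower, and in the fit blocked by mouse all 5 were called higher. The median was 1.22 with a pseudocount of 0.1. Timp2, an inhibitor that binds the Mmp14 protein, rose from 10.0 ± 2.53 to 16.5 ± 0.351 FPKM (0.70, limma adjusted p = 0.016), a call that was lost after dividing by the T-cell level (0.33, limma adjusted p = 0.094). Mmp25, another membrane-type member, rose from 0.776 ± 0.363 to 4.52 ± 1.31 FPKM (1.62, limma adjusted p = 0.002).

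Around Grb10, 9 of 11 genes of insulin and growth factor signaling were tested, of which 3 were lower and 1 higher, with a median of -0.22. Nedd4, a ubiquitin ligase that binds Grb10, fell from 86.3 ± 25.9 to 44.7 ± 3.79 FPKM (-0.90, limma adjusted p = 0.009), and the other lower genes were Kit, given above, and Irs2 (-0.56), an insulin receptor substrate. Grb2, another adaptor, had 0.29 (limma adjusted p = 0.037), which turned to -0.10 after dividing by the T-cell level and was no longer called without any 1 library other than flow-through replicate 2. The receptor genes Igf1r and Insr were not called, with -0.20 and -0.26 (limma adjusted p = 0.385 and 0.155). Of the closest relatives of Grb10, Grb7 was at 0.813 ± 0.439 and 1.19 ± 0.251 FPKM and was not called (limma adjusted p = 0.278), and Grb14 did not reach the mean of 1 FPKM.

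For Frat2, 12 of 13 genes of the WNT and GSK3 pathway were tested, of which 2 were lower and 2 higher, with a median of -0.034. Lef1, a transcription factor of the pathway, fell from 63.7 ± 17.9 to 36.2 ± 1.07 FPKM (-0.75, limma adjusted p = 0.028), and Dvl1, which relays the signal from the receptor, fell from 29.2 ± 4.73 to 20.5 ± 1.70 FPKM (-0.48, limma adjusted p = 0.021). Gsk3b, a kinase that FRAT proteins bind, was at 14.2 ± 0.393 and 17.5 ± 0.933 FPKM (0.28, limma adjusted p = 0.018), which turned to -0.095 after dividing by the T-cell level, and Axin2, a target and inhibitor of the pathway, was the other higher gene (0.95, limma adjusted p = 0.002). The number of lower genes was 4 without flow-through replicate 1, 0 without enriched replicate 1 or 2, and 1 without any other single library. The number of higher genes was 1 without enriched replicate 3 or 4. Frat1, the paralog of Frat2, did not reach the mean of 1 FPKM, with 0.365 ± 0.200 and 0.255 ± 0.225 FPKM.

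None of 13 other mucin genes reached a mean of 1 FPKM, and 1.79 FPKM, for Muc1 in an enriched library, was the highest value of any, against 15.7 to 22.0 FPKM of Muc13 in the flow-through. Of 21 genes of the SLC6 family and partners of Slc6a19, 4 were tested and limma called none (median -0.20), with 1 higher and 1 lower at an unadjusted p under 0.05 and 1 called higher in the fit blocked by mouse. The median was -0.49 without enriched replicate 3 and -0.77 after dividing by the T-cell level. Slc6a6, the taurine transporter, was the highest of them at 22.5 ± 0.647 and 23.5 ± 2.74 FPKM (0.06, limma adjusted p = 0.668). Leaving out a library gave 1 lower call without flow-through replicate 2 and 1 higher call when enriched replicate 1 was dropped.

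The genes lie on 8 chromosomes, with Epdr1 and Slc6a19 both on chromosome 13, and their neighbors were examined as well. Of the 18 nearest measured genes on either side, 5 were higher (Cbfb, Stard3nl, Lrp10, Heg1 and AI467606), 2 were lower and 11 were not called. Over all genes tested, 14.1% were higher and 13.7% lower. None of the 5 was called higher by limma after dividing by the T-cell level. Some of the 18 lie far away, as Sec61g is 4462 kb from Grb10, Cbfb 201 kb from Ces2g and Stard3nl 196 kb from Epdr1. The nearest was Mrpl52, a mitochondrial ribosomal protein gene 1.86 kb from Mmp14, with -0.40 (limma adjusted p = 0.049, lost without each of 6 single libraries and after dividing by the T-cell level). On the other side of Mmp14, Lrp10 had 0.47 (limma adjusted p = 0.002, and 0.08 with adjusted p = 0.757 after dividing by the T-cell level). Rrp12, 14.7 kb from Frat2, fell by 0.75 on the log2 scale (limma adjusted p = 0.006) and was the other lower neighbor. Sfrp4, 3.18 kb from Epdr1, was at 2.97 ± 3.24 and 0.511 ± 0.744 FPKM (-1.16, limma adjusted p = 0.143) and was called in the fit blocked by mouse.

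The genes whose levels moved most like each of the 9 within the fractions were found among 9329 genes whose mean was 5 FPKM or more. They were first ranked by shared library pairs and then by the root mean square difference of their deviations from the fraction means on the log2 scale. Aldh1a1 came first for both Ces2g (0.095) and Epdr1 (0.068), followed by Samd14 and Slc38a5. Gm15915 was most like Clca3a1 (0.096) and Cttn (0.117), Mmp14 most like Klhl12 (0.077) and Cdr2 (0.081), and Grb10 most like Gart (0.096) and Brca1 (0.098). For Slc6a19 it was Pde3b (0.025) and Atp8b2 (0.056), for Muc13 Flywch1 (0.094) and Xxylt1 (0.095), for Frat2 Spc25 (0.066) and Csrp1 (0.069), and for Zg16 Nudt6 (0.110) and Parg (0.139).

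These genes all shared 12 of 12 pairs with their partner, but so did others. There were 477 such genes for Gm15915 and for Mmp14, 262 for Ces2g and for Epdr1, 180 for Grb10 and 58 for Slc6a19, against 13 for Muc13, 13 for Frat2 and 4 for Zg16. The 2 genes most like each of the 9 were 17 different genes, since Aldh1a1 was taken for 2 of them. Of these 17, 5 were called lower, Clca3a1, Cttn, Samd14, Gart and Nudt6 (Samd14 not without flow-through replicate 1 or 3 or enriched replicate 2 or 4), which is 29.4% beside 13.7% of all genes tested. Another 3 were called higher, Atp8b2 (0.82), Parg (0.35) and Spc25 (0.45), and none of these 3 after dividing by the T-cell level, where Parg turned to -0.029. Spc25 was also not called without any 1 library other than flow-through replicate 1 or enriched replicate 4. Of the 9 genes most like Gm15915, Ces2g, Grb10, Epdr1 and Mmp14, 8 had a difference below 0, from -1.74 for Clca3a1 to -0.44 for Cdr2, and 1, Brca1, had 0.20. Of the 8 genes most like Muc13, Zg16, Slc6a19 and Frat2, 2 had a difference below 0. The likeness to Slc6a19 of Pde3b did not extend to the difference between the fractions, as Pde3b, the closest of all by this measure, was at 24.3 ± 7.09 and 22.2 ± 1.23 FPKM (-0.08, limma adjusted p = 0.776).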

How the data were processed

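The authors made poly(A) RNA of 8 samples (4 mice, 2 fractions each) into stranded libraries, mapped the reads to mm10 (TopHat) and quantified genes by Cufflinks 2.1.1, and the deposited values are FPKM in a single table. The release of their annotation is not given in the sources used here, nor is a strand option for Cufflinks, so values of overlapping genes on opposite strands are uncertain. Groups and replicate numbers came from the sample labels, and the replicate number was taken as the mouse. Separate mice are replicates.

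The test was limma 3.58.1 (R 4.3.3), fitted to log2(FPKM + 1) with a mean-variance trend and no block, over the 12166 of 47493 genes whose mean was 1 FPKM or more. Adjustment was by Benjamini-Hochberg (threshold 0.05). These differences understate the change of genes of low level. Scripts were tested on simulated data. Libraries of the same number deviated together (correlations across genes of 0.660, 0.589, 0.308 and 0.471 for mice 1 to 4). The labels number the replicates but do not name the mouse. A fit with this number, taken as the mouse, as a block was run beside the main fit. The other alternatives were a pseudocount of 0.1, no filter, a mean of at least 5 FPKM, T-cell scaling (each library divided by the geometric mean of 10 CD8 T-cell genes), upper-quartile scaling and leaving out each library. Those for the order of libraries were added after the data had been seen.

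The 9 genes and all 19 lists (13 of cell types, 6 of families and pathways, from general knowledge) were chosen with earlier results of these data known. Genes named singly were the 9, the 4 markers, up to 3 called and 3 not called of the highest mean FPKM per list, the nearest measured neighbors, paralogs on the family lists, and the 2 genes most like each of the 9. Genes named to complete a short count (Flt3, Hlf, Irs2, Axin2, C1qa, C1qc, Cdh1) and the receptor gene Insr were chosen after their values were seen. One gene of the family lists is not reported here. Coordinates came from GENCODE release M21, which holds 98.9% of the gene identifiers, and sequences from RefSeq.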

Additional observations from a re-analysis of the deposited data

Results flagged for a closer look

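None of the 9 genes had a library that stood apart from the other 3 of its fraction by Dixon's criterion (the gap to the nearest library over the range of the group). Among all 182 groups of 4 libraries of the genes named, 6 had such a library, where chance gives 9.1. Muc1, a mucin, was at 1.79 FPKM in enriched replicate 3, and Sfrp4, the neighbor of Epdr1, at 1.62 FPKM in enriched replicate 1, both above the other enriched libraries. Nudt6, which ordered the libraries as Zg16 did, was at 6.74 FPKM in flow-through replicate 3, below the others, and Lrp10, the neighbor of Mmp14, was at 49.1 FPKM in flow-through replicate 1, below the others. Kit was at 38.3 FPKM in flow-through replicate 1, above the others, and Irf4 was at 14.8 FPKM in enriched replicate 1, below the others.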

How the results depend on the processing

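The 9 genes kept their direction under every alternative, which their choice by this contrast largely fixed. In all 9 the fractions did not overlap under any alternative, but only T-cell and upper-quartile scaling could have changed that. Of 126 recomputed log2 differences of these genes, 119 moved by less than the SD between libraries and 7 by more, all away from 0: with a pseudocount of 0.1, Grb10 moved to -2.83, Muc13 to -2.31, Zg16 to -2.56 and Slc6a19 to -2.24, and under T-cell scaling Muc13 moved to -2.42, Zg16 to -2.31 and Frat2 to -1.93. The median of the 9 moved to -2.48 with a pseudocount of 0.1. T-cell scaling left 505 higher genes, moved the median of all genes to -0.38 and that of the CD8 T-cell genes to 0.0018, and turned Grb2 to -0.10, Gsk3b to -0.095 and Parg to -0.029. The replicate block (mouse) gave 2705 higher and 2763 lower genes with 22 erythroid genes lower, and no called gene of those named lost its call. Without a filter on low values 3 erythroid genes were lower. Leaving out single libraries gave 1107 to 1813 higher genes, 939 to 1780 lower genes and 3 to 11 lower erythroid genes. Of 1486 recomputed differences of the other named genes, 1313 kept their call and direction, 114 lost their call, 56 gained one and 3 reversed. The cause of these changes was not tested. FPKM carries no depth, so counting error is unknown.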

Other observations

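The 4 genes that did not follow Car1 were also set against Myb, the progenitor gene given above, which was chosen for this after its values had been seen. Frat2 was at 32.2% to 37.8% of Myb in the flow-through libraries and at 25.7% to 47.5% in the enriched libraries, ranges that overlap. Muc13 was at 20.8% to 26.7% of Myb in the flow-through and at 13.6% to 15.3% in the enriched fraction, and Zg16 was at 9.47% to 11.0% and at 4.48% to 6.02%, so both were also lower relative to Myb. Slc6a19 was at 6.66% to 15.2% and at 5.03% to 8.50% of Myb. These ratios share the libraries and the contrast by which the genes were chosen, and no test was run on them.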
